A study of Mus musculus with 14 samples.

Results

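The histone genes of the mouse were followed across 7 H3K4me3 peak lists of LSK cells, the lineage-negative, Sca-1-positive, c-Kit-positive fraction of bone marrow that holds hematopoietic stem and progenitor cells. Members were the protein-coding genes of the GRCm38 annotation (RefSeq, GRCm38.p6) whose symbols follow the H1, H2A, H2B, H3 and H4 naming, with the H2 genes of the major histocompatibility complex left out, and 102 of 21887 protein-coding genes met this rule. Of the 102, 65 were clustered replication-dependent genes, 8 were single genes of replacement variants (H3f3a, H3f3b, H2az1, H2az2, H2ax, H2aj, H1f0 and H1f10), 28 were germ line or other genes such as the H2al1, H2ab and H1f7 to H1f8 genes, and 1, the solitary H4 gene H4f16, stood apart from both main classes. RefSeq names a further gene of the chromosome 13 cluster H4bc24, a symbol that the rule does not take, and it was not counted.

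The cells came from C57BL/6J male mice of no engineered genotype that were put on a high-fat diet (HFD, 60% of energy from fat) or a low-fat diet (LFD, 10%) at 3 to 4 weeks of age and kept on it for 16 to 20 weeks. HFD-LSK has 3 lists and LFD-LSK has 4, each from its own CUT&Tag library, an assay in which an antibody to H3K4me3 directs a transposase that cuts and tags the DNA around it. The labels give neither the number of mice in a library nor its cohort, so a p-value measures the spread between these libraries. The 7 matching IgG libraries were not analysed here.

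A chromatin fiber is wound on octamers of H2A, H2B, H3 and H4, with linker histone H1 outside. The clustered genes make the bulk of these proteins while DNA is copied. They have no introns, sit side by side in many copies, often as divergent H2A and H2B pairs that share an upstream region, and their messages end in a stem-loop instead of a poly(A) tail. The single variant genes are mostly expressed through the cell cycle, have introns in some cases and mostly give polyadenylated messages. H3.3 (H3f3a, H3f3b) replaces H3 outside replication, and H2A.Z (H2az1, H2az2) flanks active starts. H2A.X (H2ax) is phosphorylated at DNA breaks, and H1.0 (H1f0) and H1.10 (H1f10) are replacement linker histones. H3K4me3 marks the starts of transcribed genes.

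Upstream sequences are given as examples of both main classes, with H3f3a as the only single variant. The 7 stretches below were chosen for H1f2 (the only clustered gene called in every list), H4c4 (an H4 gene with calls in 4 lists), H2bc9 (whose domain had calls in 3 LFD-LSK lists), H3f3a (a variant with calls in every list) and 3 divergent H2A and H2B pairs, of which H2ac15-H2bc15 has no call. Each is written 5′ to 3′ and ends just before the annotated start. For the pairs it runs on the plus strand over the whole interval between the starts. Capitals mark 5 words, each searched on both strands: CCAAT, which binds NF-Y, TATAAA, the core of a TATA box, the octamer ATTTGCAT, which binds Oct-1, GGTCCG, part of the H4 element that Hinfp binds, and AAACACA, the H1 box. A word on the other strand appears as its reverse complement. Sequence and positions are RefSeq's, GRCm38.p6.
H1f2 (chr13:23738607-23738806, plus strand): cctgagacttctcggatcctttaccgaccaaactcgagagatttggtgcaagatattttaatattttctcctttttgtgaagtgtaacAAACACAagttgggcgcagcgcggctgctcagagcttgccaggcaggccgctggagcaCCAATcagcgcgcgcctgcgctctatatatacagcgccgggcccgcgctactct
H4c4 (chr13:23581368-23581567, plus strand): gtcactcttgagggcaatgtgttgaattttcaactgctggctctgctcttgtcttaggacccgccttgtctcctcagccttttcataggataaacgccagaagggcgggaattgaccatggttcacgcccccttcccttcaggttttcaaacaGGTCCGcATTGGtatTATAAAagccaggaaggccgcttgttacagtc
H2bc9 (chr13:23543445-23543644, minus strand): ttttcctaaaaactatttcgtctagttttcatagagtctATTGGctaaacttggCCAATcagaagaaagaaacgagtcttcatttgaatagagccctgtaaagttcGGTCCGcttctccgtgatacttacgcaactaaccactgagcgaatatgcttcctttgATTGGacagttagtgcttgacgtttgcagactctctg
H3f3a (chr1:180813606-180813805, minus strand): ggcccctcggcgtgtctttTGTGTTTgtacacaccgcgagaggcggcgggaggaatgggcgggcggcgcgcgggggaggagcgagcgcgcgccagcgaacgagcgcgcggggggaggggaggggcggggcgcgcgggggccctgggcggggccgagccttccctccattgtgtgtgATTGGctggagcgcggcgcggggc
H2bc7-H2ac7 (chr13:23574208-23574380, plus strand): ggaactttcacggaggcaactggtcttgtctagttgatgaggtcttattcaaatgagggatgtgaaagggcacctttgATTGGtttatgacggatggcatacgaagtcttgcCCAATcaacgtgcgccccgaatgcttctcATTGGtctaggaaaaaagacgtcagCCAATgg
H2ac8-H2bc8 (chr13:23571221-23571399, plus strand): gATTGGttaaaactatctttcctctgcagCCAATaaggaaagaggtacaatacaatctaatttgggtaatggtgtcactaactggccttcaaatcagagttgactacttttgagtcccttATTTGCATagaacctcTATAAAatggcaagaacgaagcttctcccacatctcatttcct
H2ac15-H2bc15 (chr13:21753913-21754075, plus strand): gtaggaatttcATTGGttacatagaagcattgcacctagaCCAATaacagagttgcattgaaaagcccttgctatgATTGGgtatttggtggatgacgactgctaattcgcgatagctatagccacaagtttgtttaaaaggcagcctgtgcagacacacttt
These stretches held AAACACA and CCAAT before H1f2, GGTCCG near the start of H4c4, and repeated CCAAT words between the H2A and H2B starts.

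Over the table's promoters (250 bases before to 50 after a start), 60 clustered genes had an entry. CCAAT was found in 52 of the 60 (86.7%), against 37.4% of all 32851 promoters in the table. TATAAA was found in 35 (58.3%, against 13.6%) and the octamer in 13 (21.7%, against 1.74%). Most words were unevenly spread over the kinds of clustered gene. GGTCCG was in 10 of 11 H4 promoters, where its first base lay between 47 bases before and 7 bases after the start, and in 1 H2B and 1 H3 promoter. AAACACA was in 5 of 6 H1 promoters, between 122 and 112 bases before the start, and also in 2 H2A and 2 H2B promoters. TATAAA was found in all 5 kinds. The octamer was in 7 of 18 H2A and 6 of 15 H2B promoters and in none of the H1, H3 or H4 promoters. CCAAT was in every H1, H2A, H2B and H3 promoter of the table and in 3 of 11 H4 promoters. Divergent pairs share part of this sequence, so their promoters are not separate counts. Among the 7 single variant promoters 5 held CCAAT, 2 held GGTCCG, and TATAAA, the octamer and AAACACA were in 1 each. Of the clustered promoters, 36 belonged to genes with a call in at least 1 list and 24 to genes with none, most of which lie in long stretches without any peak. H2bc6 is among the 36 by the promoter at its 5′ end, though its calls lay at a start inside the gene. CCAAT was in 83.3% of the called and 91.7% of the uncalled, TATAAA in 55.6% and 62.5%, the octamer in 25% and 16.7%, GGTCCG in 25% and 12.5% and AAACACA in 11.1% and 20.8%. No test was run on these shares. H2bc21, H4c14, H2ax, H3c7, H2bc4 and H3c1 had no entry.

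The 7 lists differed in length, from 6921 to 13094 peaks. They hold no read counts, so the depth is unknown, and the number of peaks is given beside each count instead. The lowest fold that was called lay between 2.84 and 3.71, and the lowest −log10 p between 5.01 and 5.08. The lowest fold is not a floor, and an uncalled start may have a higher fold. A start without a call had no peak in that list, which is not the same as no mark. Overlapping peaks of the 7 lists were merged into 14659 domains, of which 4395 were called in all 7. The progenitor genes Kit, Cd34, Meis1 and Gata2 were called in 7 of 7 lists, Flt3 and Runx1 in 6, Spi1 in 1 and Ly6a, which encodes Sca-1, in none. Of the markers of mature blood cells, the T cell gene Cd3e and the neutrophil gene Ly6g were called in no list.

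Single variant starts were called more often than clustered starts in every list. A start counted as called where a peak lay within 1 kb of it. In HFD-LSK, 15, 37 and 30 of the 65 clustered starts were called in replicates 1, 2 and 3. In LFD-LSK the counts were 5, 30, 20 and 8 in replicates 1 to 4. The single variants gave 6, 7 and 6 of 8 in HFD-LSK and 5, 7, 7 and 5 of 8 in LFD-LSK. As shares, the clustered genes ran from 7.69% to 56.9%, the single variants from 62.5% to 87.5% and all protein-coding genes from 30.5% to 51.4%. None of the 28 germ line or other genes was called in any list, H1f7 of the testis and H1f8 of the oocyte among them. Many of these starts lie in repeated sequence, as given below, so a missing call there is not a measured absence.

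**Figure D1:**
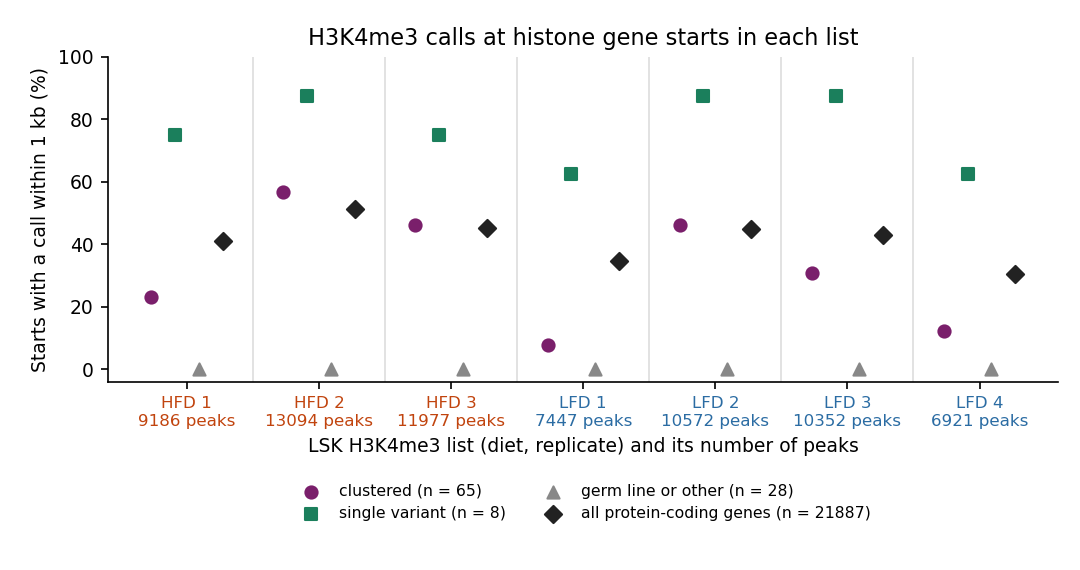
Share of gene starts with an H3K4me3 peak within 1 kb (y axis, percent) in each of the 7 lists (x axis, with the number of peaks in the list), for clustered, single variant, germ line or other, and all protein-coding genes. The single variants sit between 62.5% and 87.5%, while the clustered genes move from 7.69% in LFD 1 to 56.9% in HFD 2.

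The clustered count moved with the length of the list, and the counts of the diets overlapped. The list with most peaks, HFD-LSK replicate 2 with 13094, had 37 clustered starts, and the shortest lists, LFD-LSK replicates 1 and 4 with 7447 and 6921 peaks, had 5 and 8. HFD-LSK averaged 27.3 ± 11.2 clustered starts (SD, n = 3) and LFD-LSK 15.8 ± 11.5 (SD, n = 4), a difference of 11.6 that is about the size of the spread between lists. When each list was reduced to its 6921 peaks of highest fold, the counts became 4, 10 and 12 in HFD-LSK and 5, 8, 3 and 8 in LFD-LSK, with means of 8.67 ± 4.16 and 6 ± 2.45. At equal length the difference was thus 2.67 starts. Without HFD-LSK replicate 1 the difference in the full lists was 17.75 starts, and without HFD-LSK replicate 2 it was 6.75. All protein-coding genes averaged 10055 starts in HFD-LSK and 8374 in LFD-LSK, and 7013 and 7036.5 at equal length. The single variants averaged 6.33 ± 0.577 starts in HFD-LSK and 6 ± 1.15 in LFD-LSK, and at equal length 5 ± 1 and 5.25 ± 0.5. Neither difference exceeded the spread between lists.

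By histone type, calls were spread over all 5 kinds of clustered gene. Of the 6 clustered H1 genes, 3 were called in at least 1 list, as were 9 of 18 H2A, 10 of 17 H2B, 8 of 12 H3 and 9 of 12 H4 genes. Together these are 60% of the clustered genes, beside 53.5% of all protein-coding genes. By position the calls were uneven. Of the 29 genes between 23531044 and 23764412 on chromosome 13 (GRCm38), 27 were called in at least 1 list and 14 in 4 or more, and H1f4 and the testis linker histone H1f6 were called in none. The 5 genes between 22035122 and 22043658 were called in 3 lists each, and the 6 genes from H2bc13 to H4c12 (21715711 to 21750553) all had a call somewhere. The 11 clustered genes that follow H4c12, up to 21833475, had none, nor did the 10 genes of the chromosome 3 cluster (96219885 to 96270192), the testis pair H2bc1 and H2ac1, or H2bu2 on chromosome 11.

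The chromosome 3 genes, the 11 genes after H4c12 and H2ax lay in long stretches without a peak in any list. The testis pair, H2bu2, H1f4 and H1f6 did not lie in these. On chromosome 3 there was no peak between 96173487 and 96414244, a stretch that also holds the starts of Sv2a, Bola1 and Fcgr1. On chromosome 13 there was none between 21750809 and 21882201, and the only other protein-coding start there was that of H4bc24. H2ax, the only single variant without a call, lay in a stretch of chromosome 9 without a peak that also holds the starts of Rps25, a ribosomal protein gene, Hyou1 and Vps11. On chromosomes 3 and 9 the missing calls were thus shared with genes of other kinds. Whether the regions could be called at all was not tested, and the histone genes of all 3 stretches are treated as not measured here. Without these 3 stretches 39 of 44 clustered genes and all 7 remaining single variants were called in at least 1 list, and the clustered share ran from 11.4% to 84.1% per list. The stretches were defined by having no peak in these same lists, so leaving them out can only raise these shares. All protein-coding genes were not counted in this way, so these shares have no background.

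The sequence around clustered starts was less unique than around the starts of single variants and of genes that are not members. Histone genes are near-identical copies, and a read that fits several copies cannot be placed. Within 1 kb of a start, the share of 32-base words found once in the genome (GRCm39, both strands) had a median of 98.2% over 1058 other protein-coding genes (every 20th by name), 97.03% over the 8 single variants and 74.8% over the 63 clustered genes found by symbol in the GRCm39 annotation. Over the 26 germ line or other genes found in this way the median was 39.6% (0 to 100%), and 20 of them lay below 90%. Each value is for the 5′ end of the gene. Starts inside a gene, such as those where H3f3b and H2bc6 were called, were not scored. The 25 clustered genes without a call had a median of 69.1% (lowest 0) and the 38 with one 75.3% (lowest 54.7%). The 9 clustered genes under 54.7% were all uncalled, and all lie in the stretches of chromosomes 3 and 13 treated as not measured: H2ac23, H2ac24 and H2bc23 were at 0, H4c17 and H4c18 at 4.21% and 4.26%, H3c14 and H3c15 at 19.4% and 20.4%, and H2ac18 and H2ac19 at 43.4% and 40.6%. Counts at these copies are uncertain. The other 16 uncalled clustered genes had values from 61.3% to 100%, which overlap those of the called genes. Outside the stretches, the 4 uncalled genes with a value (H2ac1 and H2bc1 at 89.3%, H1f4 at 90.3% and H1f6 at 100%) all lay above the median of the called genes. H2bu2, also uncalled there, was not found by symbol and has no value. The part of repeated sequence in the missing calls was not tested.

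**Figure D2:**
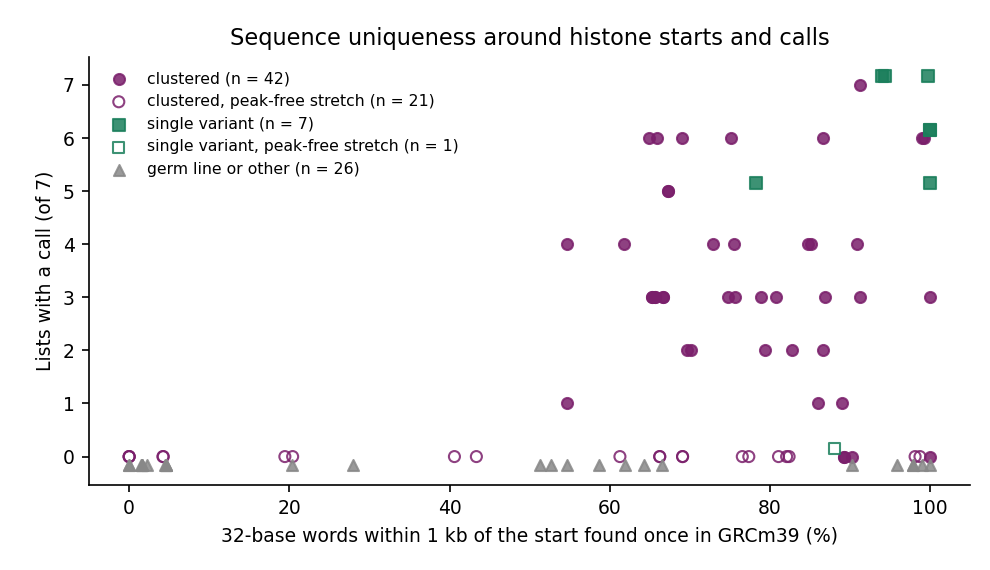
Number of lists with a call (y axis, of 7) against the share of 32-base words within 1 kb of a histone gene start that occur once in the genome (x axis, percent), with 1 point per gene (single variants and germ line genes are offset slightly up and down). Open symbols are genes in the stretches without a peak. Genes not found by symbol in GRCm39, H2bu2 among them, are not shown. Every clustered gene below 54.7% is at 0 lists and is an open symbol, while the 4 filled clustered symbols at 0 lists lie between 89.3% and 100%.

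The 39 called clustered genes fell in 30 domains and the 7 called single variants in 7. Of the 30, 21 held 1 histone start and 9 held 2, and none held 3. There were 11 divergent H2A and H2B pairs within 1 kb, with 164 to 281 bp between their starts. In 6 of the 11 both starts lay in a single called domain: H2bc13 with H2ac13, H2ac12 with H2bc12, H2ac11 with H2bc11, H2ac8 with H2bc8, H2bc7 with H2ac7 and H2ac6 with H2bc4. The other 5 had no call, and 4 of these are in the stretches above while the fifth is the testis pair.

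Clustered domains were narrower than single variant domains once merged, and lower in every list. The merged width had a median of 1140 bp (363 to 2652) over the 30 clustered domains, 1808 bp (1146 to 2352) over the 7 single variant domains and 1360 bp over the 10547 domains at protein-coding starts. The ranges overlapped, and the 4 narrowest clustered domains (363 to 481 bp) were called in 1 or 2 lists. Within a list, the median width of the peaks at clustered starts was 755, 1237 and 580 bp in HFD-LSK and 781, 776, 629 and 365 bp in LFD-LSK. At single variant starts it was 1545, 1808 and 908 bp and 769, 1223, 1070 and 340 bp. The clustered median was smaller in 5 of the 7 lists, and in the shortest lists, LFD-LSK replicates 1 and 4, it was larger by 12 and 24.5 bp.

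Ranked by fold within its list, with 0% at the top, the median called clustered domain lay at 81.7%, 63.9% and 61.1% in HFD-LSK and at 79.2%, 85.1%, 79.7% and 95.6% in LFD-LSK. The median called single variant domain lay at 46.2%, 42.0% and 38.2%, and at 15.2%, 29.6%, 37.5% and 67.3%. The clustered genes were lower in 7 of 7 lists, and lower than the median of all domains at protein-coding starts (42.1% to 48.3%) in each. With uncalled domains placed at the middle of the ranks below the last call, the clustered median was 5926 ± 1705 ranks (SD over 7 lists) farther from the top. In HFD-LSK replicate 1 and LFD-LSK replicates 1, 3 and 4 fewer than 50% of the clustered domains were called, so there that median is the placed value.

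**Figure D3:**
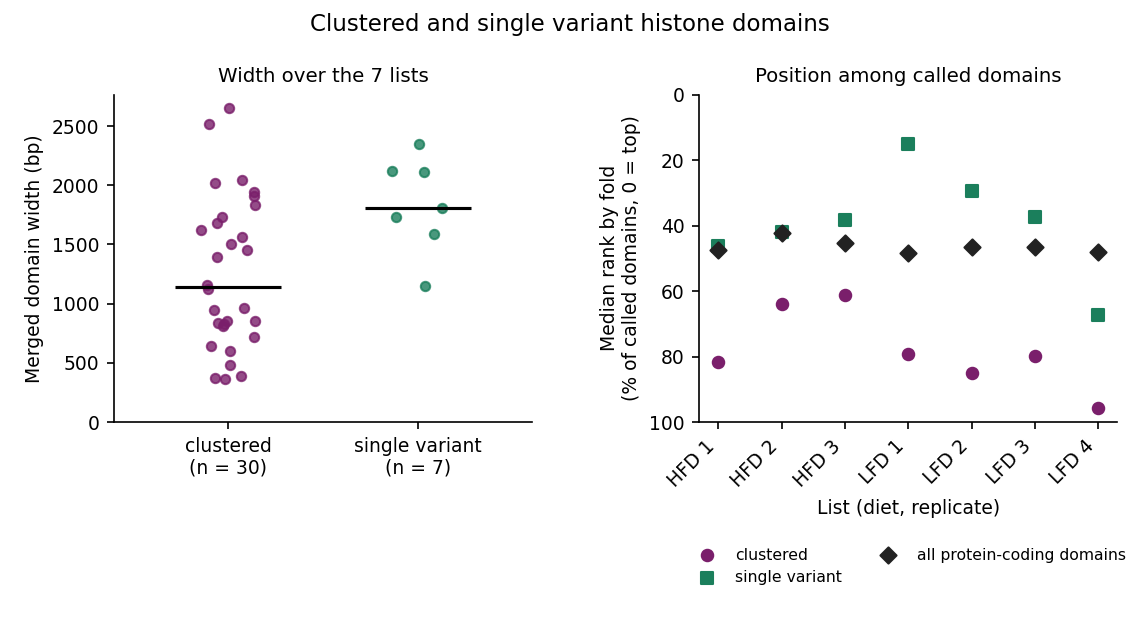
Left, merged width (bp) of each clustered (n = 30) and single variant (n = 7) domain, with a bar at the median (1140 and 1808 bp). Right, median rank by fold among called domains (percent, 0 at the top) in each list, where the clustered median is below the single variant median in all 7 lists.

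The highest points of the peaks at clustered genes lay to either side of the start, and the peaks took in much of the gene. The highest point of the 154 peaks within 2 kb of a clustered start lay at a median of 9.5 bp before it, and 75 lay after it (48.7%). The quartiles were 240 bp before and 324 bp after the start. At the 43 single variant peaks the median was 50 bp after the start. A clustered peak covered a median of 67.5% of its gene, which is short and has no intron, and 47 of the 154 covered it whole, while a single variant peak covered a median of 14.9%. A peak near several starts was counted for each of those genes, so some of these peaks lie over a neighboring gene.

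Among the single variants, the H3.3 gene H3f3a (chromosome 1, domain 180812421 to 180814772) was called in 7 of 7 lists. Its fold over background was 15.5, 24.8 and 7.62 in HFD-LSK and 9.51, 12.4, 16.2 and 4.82 in LFD-LSK. Ranked by fold, it lay at 4.97% of the called domains in HFD-LSK replicate 1 and at 2.56% and 0.912% in LFD-LSK replicates 1 and 3, but at 67.3% in LFD-LSK replicate 4, so LFD-LSK spanned the whole range of the 7 lists. The other H3.3 gene, H3f3b (chromosome 11, 116023639 to 116024784), was called at an internal start, more than 1 kb past the gene's 5′ end, in 2 lists of HFD-LSK and 3 of LFD-LSK, with folds of 4.71 and 15.3 and of 5.39, 5.60 and 3.41. It was among the weakest called variants, at 97.1% and 44.1% in HFD-LSK and at 89.5%, 79.7% and 97.1% in LFD-LSK. The sequence around the gene's 5′ end, where uniqueness was scored, was less unique than that of the other called variants (78.2% of words). The internal start was not scored.

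The H2A.Z gene H2az1 (chromosome 3, 137863692 to 137865806) and the H2A variant gene H2aj (chromosome 6, 136807830 to 136809950) were called in 7 of 7 lists. Folds at H2az1 were 10.5, 24.7 and 7.21 in HFD-LSK and 4.31, 12.5, 9.17 and 6.95 in LFD-LSK. Folds at H2aj were 8.94, 25.9 and 11.9, and 7.27, 11.6, 8.46 and 6.95. H2aj was the steadiest of the variants and stayed between 12.02% and 44.8% in all lists. The other H2A.Z gene, H2az2 (chromosome 11, 6443239 to 6444974), was called in 6 lists and moved from 5.45% in LFD-LSK replicate 1 to 98.6% in HFD-LSK replicate 1. It was not called in LFD-LSK replicate 4.

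The replacement linker histone gene H1f10 (chromosome 6, 87980573 to 87982380) was called in 6 lists, with folds of 8.66, 15.9 and 16.2 in HFD-LSK and of 4.55, 11.7 and 6.67 in LFD-LSK replicates 1 to 3. H1f0 (chromosome 15, 79027619 to 79029206) was called in 5, with folds of 12.6 and 8.48 in HFD-LSK replicates 2 and 3 and of 4.89, 7.38 and 4.21 in LFD-LSK replicates 2 to 4. The solitary gene H4f16 lies beside H2aj and was called in 6 lists, with folds of 5.28 and 19.4 in HFD-LSK and of 3.86, 8.06, 6.31 and 3.63 in LFD-LSK. In each of these genes the ranks of the diets overlapped. The rank difference, HFD-LSK minus LFD-LSK, ran from -2914 at H1f10 (exact permutation p = 0.343, adjusted p = 0.958) to 2403 at H2az2 (exact permutation p = 0.457, adjusted p = 0.986) over the 7 single variant domains, and none passed an unadjusted 0.05.

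**Figure D4:**
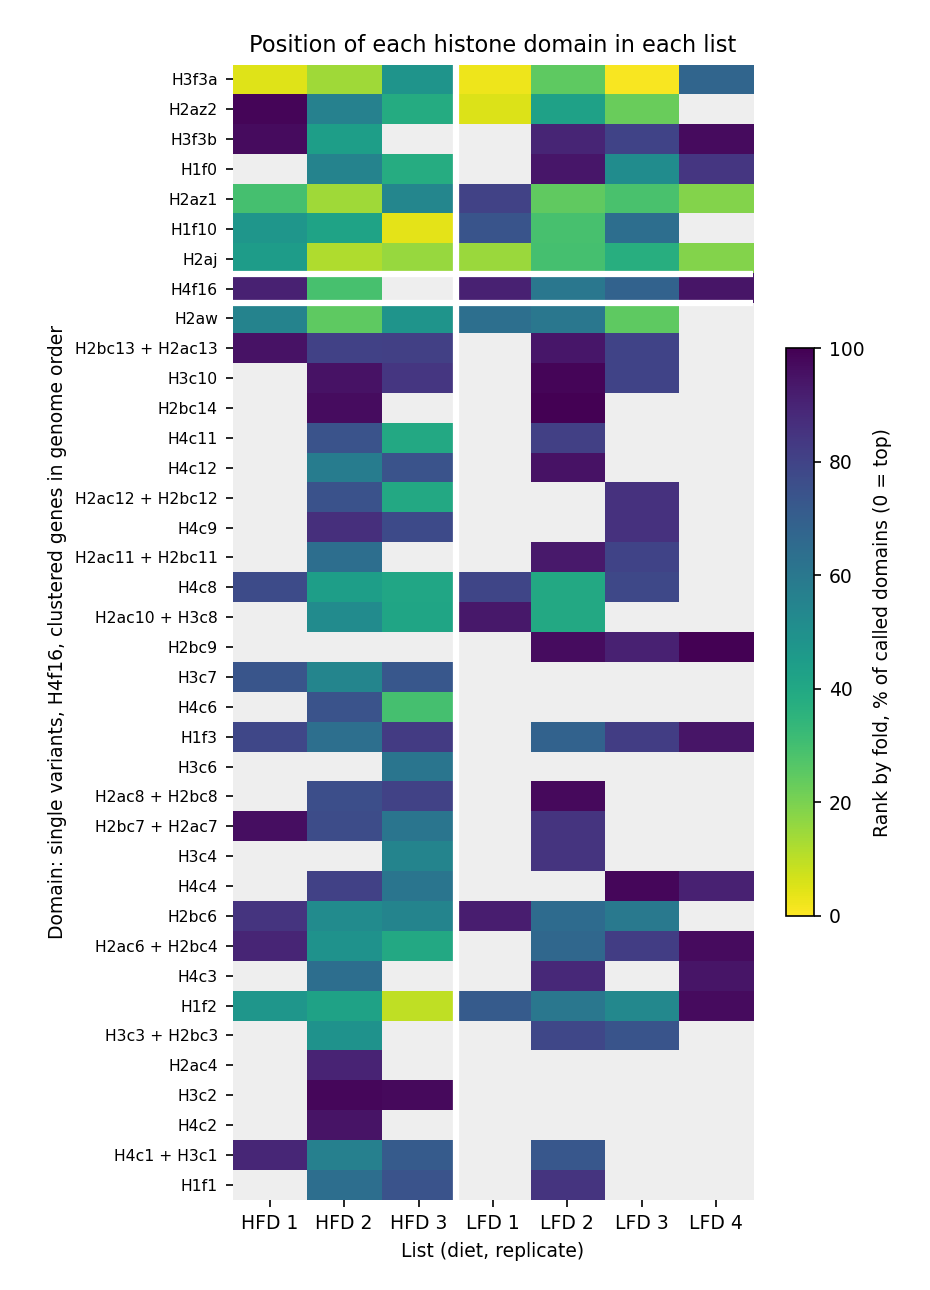
Rank by fold of each of the 38 histone domains (rows) in each list (columns) as a percent of the domains called there, with 0 at the top and gray where the domain has no call. Of the single variants H3f3a, H2az1 and H2aj have no gray cell, and of the clustered domains only H1f2 has none.

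Of the clustered genes, the replication-dependent linker histone H1f2 (chromosome 13, 23738506 to 23740337) was the only one called in 7 of 7 lists. Its fold was 8.66, 15.7 and 13.3 in HFD-LSK and 4.64, 8.06, 7.36 and 3.41 in LFD-LSK. Folds are relative to each list's own background, and so its rank was compared instead. It stood at 47.5%, 42.4% and 9.71% in HFD-LSK and at 71.5%, 60.3%, 53.3% and 97.1% in LFD-LSK. The HFD-LSK percentages were all smaller, but as ranks over all domains (4238, 5513 and 1090 against 5184, 6126, 5226 and 6319) the groups overlapped, with a difference of -2100 (exact permutation p = 0.0857, adjusted p = 0.938). Among domains called in every remaining list, H1f2 stood nearer the top in every HFD-LSK list once HFD-LSK replicate 2 or LFD-LSK replicate 3 was left out, as did 5.62% and 5.01% of all such domains. It was wider in every HFD-LSK list once LFD-LSK replicate 2 was left out, as were 22.01% of all such domains.

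No histone domain was set apart by diet in rank or width among those called in all 7 lists. Only 4 histone domains (H3f3a, H2az1, H2aj and H1f2) could be compared in this way. Ranked among the 4395 such domains, 0 of the 4 were nearer the top in every HFD-LSK list (background 2.66%) and 0 were farther from it (background 2.39%). None of the 4 was wider in every HFD-LSK list (background 6.73%) or narrower (background 0%). At an unadjusted exact permutation p under 0.05, 1 of the 38 histone domains passed in rank and 1 in covered length, in each case H3c7, against 292 and 323 of the 14659 domains. The mean covered length was larger in HFD-LSK at 36 of 38 histone domains (94.7%), a share close to that over all domains (91.2%). The mean rank was nearer the top in HFD-LSK at 20 of 30 clustered domains (66.7%) and at 2 of 7 single variants, beside 47.6% of all domains. Uncalled domains enter these means at a placed rank that is larger in longer lists, so the directions depend in part on that placement. H3c2, H2ac4 and H4c2 had calls in HFD-LSK lists only and still counted as farther from the top there (differences of 285, 605 and 794).

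The H3 gene H3c7 was the only histone gene whose domain had a call in every list of 1 diet and in none of the other. Domains with calls in some lists of 1 diet and in none of the other were those of H4c6 and H3c2 (2 HFD-LSK lists each), H3c6, H2ac4 and H4c2 (1 HFD-LSK list each) and the H3c7 neighbor H2bc9 (3 LFD-LSK lists). With H3c7, 6 of the 38 histone domains had calls in HFD-LSK only and 1 in LFD-LSK only. Over all 14659 domains these counts were 3054 and 378, so the lists as a whole leaned the same way. H3c7 and H2bc9 are divergent genes of chromosome 13 whose starts are 608 bp apart. The H3c7 domain (23544092 to 23544931) had a peak in each of the 3 HFD-LSK lists, with folds of 6.59, 12.8 and 5.87 and widths of 424, 840 and 502 bp, and none in LFD-LSK. The H2bc9 domain (23542963 to 23543559) had a peak in LFD-LSK replicates 2, 3 and 4, with folds of 4.56, 4.88 and 2.97 and widths of 410, 597 and 354 bp, and none in HFD-LSK. Each domain lies over the body of its own gene. Counted by a peak within 1 kb, the starts of H3c7 and H2bc9 were each called in 3 HFD-LSK and 3 LFD-LSK lists, so the split is one of domains. Over the 38 histone domains 1 (2.63%) had a call in the whole of HFD-LSK and none in LFD-LSK, beside 44 of all 14659 domains (0.3%). The reverse was found at 0 histone domains (background 0%).

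**Figure D5:**
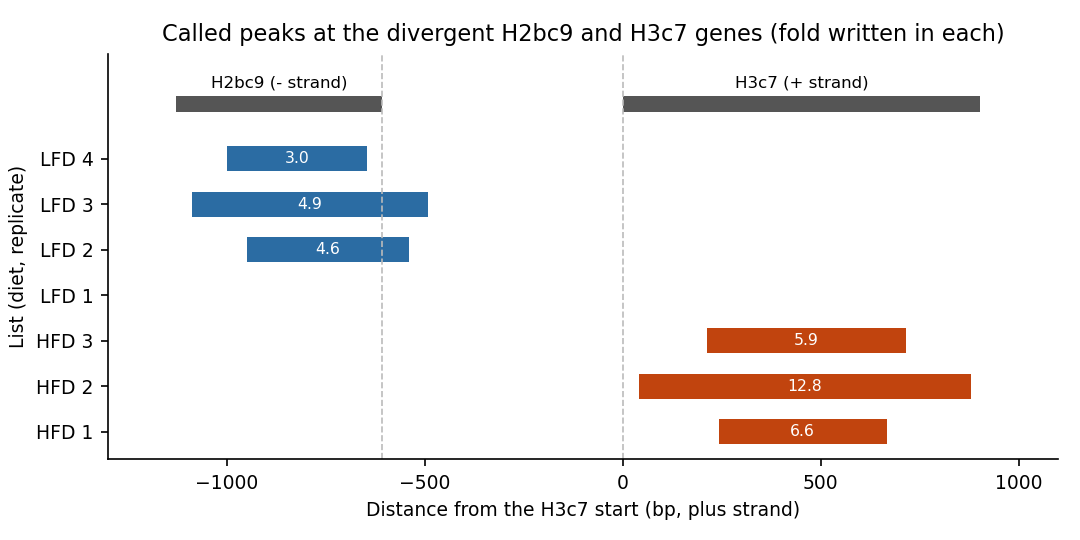
Called peaks (bars, with the fold written inside) in each list around the divergent H2bc9 and H3c7 genes (gray bars), as distance from the H3c7 start in bp. The 3 HFD lists have their peak over H3c7 and 3 of the 4 LFD lists have theirs over H2bc9, while LFD 1 has none.

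For H3c7 the rank difference was -4276 (exact permutation p = 0.0286, the smallest that 3 against 4 lists allow) and Fisher's exact test of presence gave p = 0.0286, but the adjusted p over all domains was 0.938 for rank and 1 for presence. For H2bc9 the rank difference was 3806 (exact permutation p = 0.0571, adjusted p = 0.938). The HFD-LSK ranks of H2bc9 and the LFD-LSK ranks of H3c7 are all placed values, so both differences depend on that placement. Neither domain passed after adjustment. Both depend on how peaks are joined. The domains are 532 bp apart, and merged into a single 1969 bp domain they had calls in 3 lists of either diet, with ranks of 6507, 7019 and 8047 against 10454, 9609, 8784 and 6465 (exact permutation p = 0.2). With equal numbers of peaks per list no histone domain had a call in every list of 1 diet and in none of the other. Around the H3c7 start 69.0% of 32-base words and around the H2bc9 start 75.2% were found once in the genome, and the part of repeated sequence in these calls was not tested.

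Most of the genes that act in the transcription, processing and placing of histones were called in each list, beside 30.5% to 51.4% of all protein-coding genes per list. Of 12 genes for the transcription and 3′ processing of histone messages, 9, 12 and 11 were called in HFD-LSK and 12, 12, 10 and 9 in LFD-LSK. Npat, the cyclin E and CDK2 substrate that switches on the clustered genes, Casp8ap2, and Slbp, which binds the stem-loop, were called in 7 of 7 lists, and Hinfp, the activator of H4 genes, in 6. Of 16 chaperones and exchange factors, 13, 16 and 15 were called in HFD-LSK and 12, 16, 16 and 11 in LFD-LSK. Chaf1b of the CAF-1 complex and Hira, which deposits H3.3, were called in 7 lists, Asf1a in 6 and Asf1b in 4. Among the domains of these lists called in all 7 (8 and 7 domains), no rank was set apart by diet in either direction (background 2.66% and 2.39%). The lowest p among the processing genes was at Npat, at mean ranks of 1044 in HFD-LSK and 4392 in LFD-LSK (exact permutation p = 0.114, adjusted p = 0.938). Among the chaperones it was at Vps72, a subunit that binds H2A.Z, at 10184 and 7237 (exact permutation p = 0.0286, adjusted p = 0.938). Of the remaining variants, the centromeric H3 gene Cenpa and the macroH2A gene Macroh2a1 were called in 6 lists and Macroh2a2 in 4, and LFD-LSK replicate 4 called none of them.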

How the data were processed

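H3K4me3 was profiled by CUT&Tag in sorted bone marrow LSK cells of C57BL/6J mice, 3 HFD-LSK and 4 LFD-LSK libraries. The titles name the assay CUT&RUN and the protocol CUT&Tag. Submitters' processing notes name Trim Galore, Bowtie2, Picard, MACS2, bedtools, HOMER and featureCounts, with build GRCm38, without versions, while the study's methods name another build and peak caller. Peaks were called per library. As deposited, each list gives peak ends, a summit, a fold enrichment over background (a ratio), −log10 p, −log10 q and a display score derived by the authors' caller from −log10 p. Folds and −log10 values are within-list measures, so ranks by fold were compared, and the score was not used.

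Gene starts were the 5′ ends of RefSeq genes and the starts of the RefSeq promoter table (both GRCm38.p6). Strand came from that table for 17492 genes and from GENCODE symbols for 3948. The other 447 genes, no histone gene among them, had no usable start and count as uncalled. A peak within 1 kb called a start. Peaks of the 7 lists that overlapped or touched were merged into domains, an uncalled domain took the middle of the ranks below the last call, and each domain was tested by an exact two-sided permutation over the 35 divisions of the 7 lists (smallest p = 0.0286) or by Fisher's exact test of presence, with Benjamini-Hochberg adjustment over all 14659 domains. Ranks set apart by diet were counted among the 4395 domains called in all 7 lists. Calculations used Python 3.11.15 and SciPy 1.17.1, and the steps were checked on made-up lists with known differences.

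The members, classes and gene lists were chosen with earlier results of these data known. Named were each single variant, clustered domains at either end of the ranking among those called in all 7 lists (only H1f2 qualified), and domains set apart by diet. H4c4, H4f16 and the sequences shown were chosen after their values were seen. Same-numbered libraries deviated together weakly (correlations of 0.159, -0.00381 and 0.0547), so the numbers were not taken as pairs. Alternatives were a stricter q, equal list lengths, other merging distances, 50% coverage, a 3 kb window, ranks by −log10 p, a replicate block and leaving out each library. Merging within 1000 bp, ranks over all domains and counts outside the peak-free stretches were added after seeing the data. Some marker genes and neighboring genes are not reported here.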

Additional observations from a re-analysis of the deposited data

How the results depend on the processing

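Of 286 recomputed values, 236 kept their direction and their side of the threshold or stayed within the spread between lists. The excess of clustered starts in HFD-LSK (11.6) kept its sign in all 13 alternatives. Among these, counting outside the peak-free stretches drops only uncalled genes and cannot change this or the single variant difference. Both unchanged values are counted in the 236. The excess was 2.67 with equal numbers of peaks per list, 6.75 without HFD-LSK replicate 2 and 17.75 without HFD-LSK replicate 1, and the cause was not tested. Under equal numbers the single variant difference turned to -0.25 starts, the rank gap between clustered and single variant domains was 3820, and 0 histone domains were called in every HFD-LSK and no LFD-LSK list ("called only in HFD-LSK"). With calls counted from 50% coverage of a domain upward, these were 1.42 starts and 3111 ranks. Merging within 1000 bp gave a median width difference of -216.5 bp in place of -668 bp, and 0 domains called only in HFD-LSK. Ranked over all domains, 64 of the 4395 domains called in all 7 lists were nearer the top in every HFD-LSK list and 188 farther, against 117 and 105 as reported, with 0 histone domains either way.

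Leaving out each list in turn gave 0 to 1 histone domains nearer the top in every HFD-LSK list (4.43% to 8.71% of all domains called in every remaining list), 0 to 1 wider (6.74% to 22.01%), H1f2 in both, 1 to 3 called only in HFD-LSK and 0 to 1 called only in LFD-LSK. Without HFD-LSK replicate 1 the 3 were H3c7, H3c2 and H4c6, beside 3.98% of all domains, and without LFD-LSK replicate 2 they were H3c7, H2bc7 with H2ac7, and H4c1 with H3c1, beside 1.47%. Without LFD-LSK replicate 1 H2bc9 was called only in LFD-LSK.

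Rank differences (HFD-LSK minus LFD-LSK) of 6 genes changed sign. At a −log10 q of at least 5 they were -323.5 (H3f3a), -38.3 (H3f3b) and -516 (H2az1). With equal numbers of peaks they were -405 (H3f3b) and 276 (H1f0). With 50% coverage they were -2746 (H3f3a) and -330 (H2az1), with ranks by −log10 p -1405 (H3f3a) and 401 (H1f0), and with merging within 1000 bp -1637 (H2bc9). Leaving out a list moved H3f3a from -651 to 1831, H3f3b from -1220 to 2188, H2az1 from -834 to 1358, H2aj from -602 to 657 and H1f0 from -2034 to 1593. The H3c7 difference stayed negative in 14 of 14 alternatives and kept an unadjusted exact permutation p below 0.05 in 2. With 1 list fewer, no division of the lists can bring that p below 0.05.

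With a replicate block, which used replicates 1 to 3 of each diet and an exact sign-flip test (smallest p = 0.25), the clustered difference was 9 starts and the single variant difference 0. Under the replicate block the rank difference turned to -179 (H3f3b), -181 (H2az1) and -164 (H2aj) and was -4596 at H3c7 (exact p = 0.25). The numbers name no shared animal or day. Only HFD-LSK replicate 1 and LFD-LSK replicate 1 correlated above 0.1. The depth of the lists is unknown.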
